A study of Mus with 2 samples.

Results

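A set of 9 genes that mark dendritic cells and their subsets was followed in a control tumor and in a tumor treated with recombinant IL-7 (rIL7), with 1 section of each. The genes, out of 32285 in the files, were Flt3, Zbtb46, Xcr1, Clec9a, Batf3, Cd209a, Fscn1, Ccl22 and Ccl17, picked by symbol. Both mice were BALB/c, 6 to 8 weeks old, and carried subcutaneous CT26 tumors, a transplantable colon carcinoma line of that strain. The rIL7 mouse received 10 µg of recombinant mouse IL-7 intraperitoneally on days 11 and 13 after transplantation, the control mouse received PBS, and both tumors were collected on day 15. RNA was read in place with Visium, which captures the 3′ ends of transcripts of a frozen section on a hexagonal grid of barcoded spots and tags each captured molecule so that it is counted once (a UMI). A spot can hold several cells of different types, so a level here is that of a small area, and more cells of a type cannot be told apart from more RNA per cell.

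Each group held 1 section, so no difference between the groups was tested. Each interval below is a 95% interval of counting error that treats UMIs as independent and leaves out variation between spots, animals and sections. Where the UMIs of a gene gather in few spots, it is too narrow. It is exact Poisson for a level and exact Clopper-Pearson for a share or a ratio. For a ratio of ratios it is the exact conditional interval of an odds ratio. After filtering, the control section had 2219 spots and 22951678 UMIs and the rIL7 section had 1950 spots and 25729233 UMIs. Levels are given as UMIs per 1000000 UMIs of the same area (CPM). The rim was the 2 outermost rings of spots of the largest piece of tissue and the interior was the rest of that piece, which gave 401 rim and 1806 interior spots in the control section and 330 and 1599 in its rIL7 counterpart. Median depth per spot was 10901 UMIs at the control rim, 9482 in the control interior, 11165.5 at the rIL7 rim and 13162 in the rIL7 interior. As a guide to stray counts, 12 genes of other organs such as albumin and insulin had a median of 0 UMIs per gene in the control section and of 0.5 in its counterpart, the highest being Apoa1 with 93 and 101.

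Dendritic cells take up antigen in tissue and present it to T cells. Conventional dendritic cells depend on the receptor Flt3 and express the factor Zbtb46; their cDC1 branch needs Batf3 and carries Xcr1 and Clec9a, and part of the cDC2 branch carries Cd209a. On maturation, whatever the branch, they switch on Ccr7, the receptor that guides them to lymph nodes, the actin-bundling protein fascin (Fscn1) and the chemokines Ccl22 and Ccl17, which attract Ccr4-bearing T cells.

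Ccl22, Flt3 and Batf3 had their highest levels in the outermost ring of the rIL7 section, and Ccl22 was also higher in its interior than in that of the control. Flt3 and Batf3 were not higher in the rIL7 interior, and Xcr1 and Clec9a had too few UMIs to be placed by ring. Fscn1 and Zbtb46 were spread over both tumors, Ccl17 was higher in the rIL7 interior and not at its rim, and Cd209a was too sparse to place. Of 9 members with at least 20 UMIs over both sections, 3 were at least 2-fold higher in the rIL7 section (Ccl22, Clec9a and Xcr1), beside 4.05% of all 14313 genes tested. At the rim of the rIL7 section 4 of 7 members tested (Ccl22, Flt3, Batf3 and Clec9a) were at least 2-fold above the interior, beside 6.83% of all 13324 genes. In the control section 0 of 5 members tested were, beside 1.03% of 13168 genes. Ccl22 and Clec9a had under 20 UMIs there and were not tested, so the counts of the sections do not cover the same members.

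**Figure D1:**
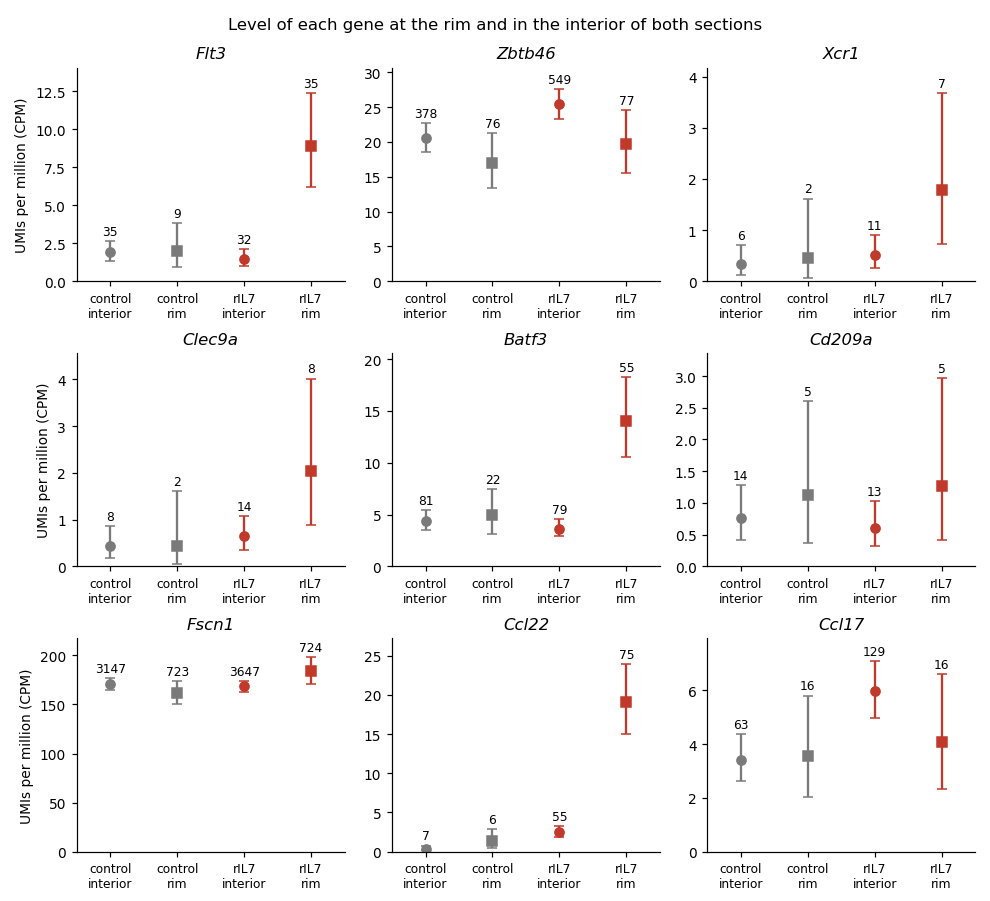
Level of each gene (y axis, CPM, each panel with its own scale from 0) in the interior (circles) and at the rim (squares) of the control (grey) and rIL7 (red) section, with 95% exact Poisson intervals and the UMI count above each point. Flt3 (8.92 CPM), Batf3 (14.0) and Ccl22 (19.1) stand out at the rIL7 rim, while Fscn1 stays between 162 and 185 CPM in all 4 areas.

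The members were first separated into genes found across the tumor and genes restricted to few spots, since CT26 cells and stroma can also make some of them. Every spot was thinned to 5900 UMIs, shallower spots being left out, and a gene seen in over 20% of interior spots of both sections was called widespread. Fscn1 was widespread, with at least 1 UMI in 64.2% (61.8 to 66.5) of 1670 control and 61.6% (59.1 to 64.0) of 1578 rIL7 interior spots. The other 8 were restricted by this rule. At a fixed depth the share of spots rises with a gene's level, so the rule mainly parts high from low levels. It does not show which cells make a gene. Zbtb46 came closest, with 12.1% of control and 14.9% of rIL7 interior spots, and Ccl17 followed with 2.16% and 3.55%. Each of the remaining 6 was in under 3% of interior spots of either section.

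Position relative to other cells divided the restricted genes further. Spots of each section were ranked by the share of their UMIs that came from 7 MHC class II genes, which antigen-presenting cells express, and the top tertile was compared with the bottom one. Flt3 was 5.11-fold (1.78 to 20.1) higher in the MHC class II-rich tertile of the control section and 4.19-fold (2.21 to 8.50) in that of the rIL7 section. Batf3 was 1.97-fold (1.20 to 3.35) and 3.49-fold (2.24 to 5.58) higher there. Ccl22 was 7.85-fold (4.60 to 14.3) higher in the rIL7 section, and of the control section's few UMIs 5 fell in the top tertile and 0 in the bottom one. Xcr1 and Clec9a had 13 and 17 UMIs in the top tertile of the rIL7 section and 1 and 2 in the bottom one. Within the rIL7 interior alone the ratio was 2.50 (1.20 to 5.28) for Ccl22, 1.97 (0.810 to 4.797) for Flt3 and 1.97 (1.07 to 3.62) for Batf3, so that of Flt3 included 1 there. In the control interior Flt3 was at 4.46-fold (1.49 to 18.0) and Batf3 at 2.16-fold (1.24 to 3.90).

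By that ranking the intervals of Zbtb46 and Ccl17 included 1, and Fscn1 differed little and in opposite directions in the 2 sections. Zbtb46 had ratios of 0.885 (0.703 to 1.11) and 0.936 (0.764 to 1.14), Fscn1 of 0.892 (0.825 to 0.964) and 1.08 (1.005 to 1.16), and Ccl17 of 1.23 (0.691 to 2.22) and 1.17 (0.774 to 1.77), control before rIL7. When spots were ranked instead by 2 CT26 transcripts, Rpl39l and Baiap2l1, the tumor-rich tertile held Zbtb46 at 1.06 times (0.868 to 1.30) and Fscn1 at 0.942 times (0.875 to 1.01) its level in the tumor-poor tertile of the rIL7 section. Ccl22 there was at 0.157 times (0.0879 to 0.265), Flt3 at 0.307 times (0.145 to 0.606) and Batf3 at 0.541 times (0.345 to 0.837). In the control section the same ratios were 0.209 (0.022 to 1.01), 0.664 (0.289 to 1.48) and 1.001 (0.595 to 1.69), with intervals that include 1. Within the rIL7 interior alone the intervals of the 3 ratios also included 1 (0.619 for Ccl22, 0.516 for Flt3 and 1.02 for Batf3), so the tumor ranking did not separate them there. Ccl17 by the CT26 ranking was at 1.32 times (0.870 to 2.03) in the rIL7 section and 0.647 times (0.358 to 1.15) in the control. Neither ranking thus separated Ccl17, which was in few spots at its low level and is kept in the sums of the restricted members. Zbtb46 met the rule for restricted genes by its low count while being spread as Fscn1 was, and these sums are given with and without Zbtb46.

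**Figure D2:**
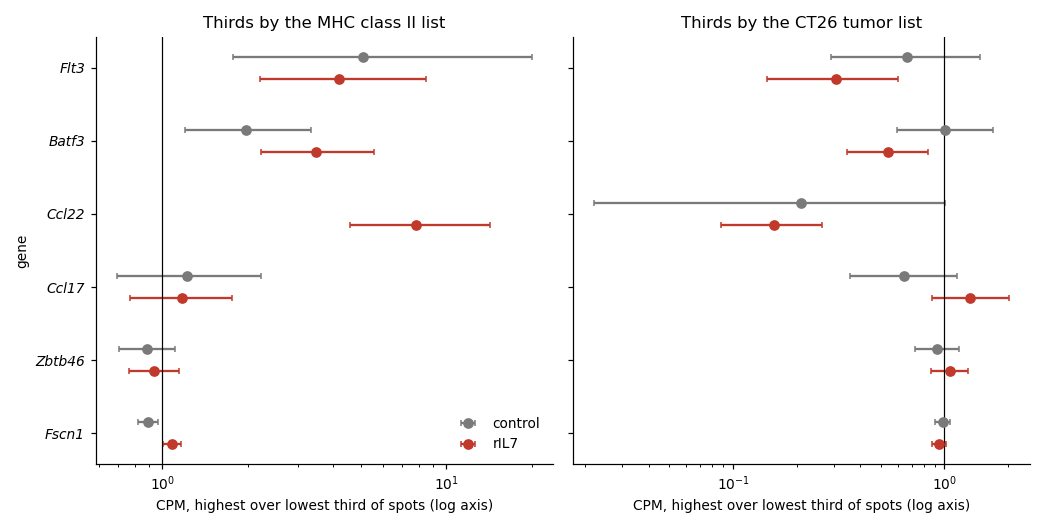
Ratio of CPM in the top to the bottom tertile of spots (x axis, log scale), ranked by the MHC class II list (left) or the CT26 list (right), in the control (grey) and rIL7 (red) section with 95% counting intervals; a point with 0 UMIs in 1 tertile is left out. Ccl22, Flt3 and Batf3 lie right of 1 on the left (7.85, 4.19 and 3.49 in the rIL7 section) and Zbtb46 and Fscn1 lie near 1 on both sides.

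Flt3 is the receptor for the growth factor Flt3 ligand and is kept by dendritic cells from their progenitors onward. The gene (chromosome 5, 147330741 to 147400489 in GRCm38) had 9 UMIs at the control rim and 35 in the control interior, against 35 at the rIL7 rim and 32 in the rIL7 interior. These are 2.01 CPM (0.920 to 3.82) and 1.90 (1.33 to 2.65) in the control and 8.92 (6.21 to 12.4) and 1.48 (1.01 to 2.09) in the rIL7 section, so a single area, the rIL7 rim, stood apart. The rim level was 6.03-fold (3.63 to 10.1) the interior level in the rIL7 section and 1.06-fold (0.447 to 2.24) in the control, a ratio of ratios of 5.70 (2.22 to 15.5). By ring, Flt3 in the rIL7 section stood at 13.2 CPM in the outermost ring, 5.21 in the next and between 0.892 and 1.81 further in. All 4 quadrants of the rIL7 rim held it, at 7.78 to 11.2 CPM, above all 4 of the control rim at 0.870 to 3.77. Over whole sections the gene differed by 1.38-fold (0.930 to 2.06), an interval that includes 1, and in the interior alone by 0.777-fold (0.466 to 1.29). The ligand Flt3l was at 0.896-fold in the rIL7 section and at 0.869-fold at its rim against its interior, unlike its receptor.

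Zbtb46, a zinc finger factor of conventional dendritic cells that some endothelial cells also express, showed another pattern. The gene (chromosome 2, 181371009 to 181493262) had 76 UMIs at the control rim and 378 in the control interior, and 77 and 549 in the rIL7 section. The rim stood at 17.0 CPM (13.4 to 21.3) in the control and 19.6 (15.5 to 24.5) in the rIL7 section, below interiors at 20.6 (18.5 to 22.7) and 25.4 (23.3 to 27.6). Rim over interior was 0.827 (0.638 to 1.06) and 0.773 (0.601 to 0.983), so Zbtb46 did not share the rim excess of Flt3. The rIL7 section as a whole was 1.23-fold (1.09 to 1.39) above the control, and its interior also 1.23-fold (1.08 to 1.41).

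**Figure D3:**
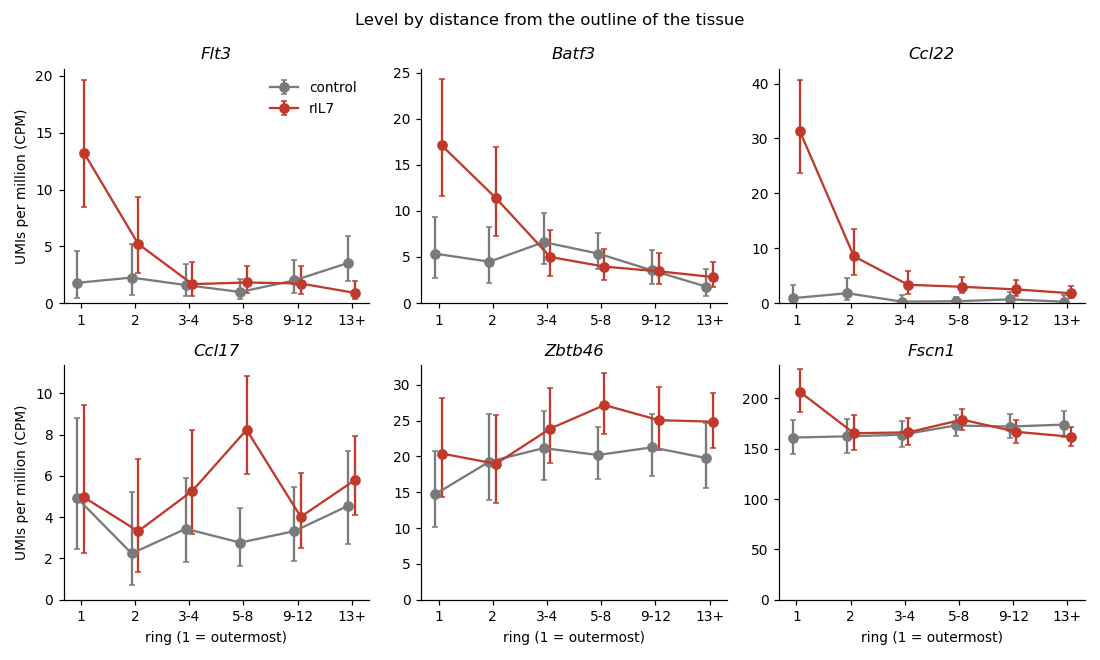
Level of 6 genes (y axis, CPM, from 0) by ring counted from the outline of the tissue (x axis, 1 = outermost) in the control (grey) and rIL7 (red) section, with 95% exact Poisson intervals. In the rIL7 section Flt3, Batf3 and Ccl22 fall from 13.2, 17.1 and 31.4 CPM in ring 1 to 1.67, 4.996 and 3.33 in rings 3 to 4, and Fscn1 is higher in ring 1 (207) than in ring 2 (165).

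Batf3, the transcription factor on which cDC1 development depends, and which activated T cells can also express, had enough counts to place. The gene (chromosome 1, 191098414 to 191108943) had 22 UMIs at the control rim and 81 in the interior, and 55 and 79 in the rIL7 section, that is 4.92 CPM (3.08 to 7.45) and 4.41 (3.498 to 5.48) against 14.0 (10.6 to 18.2) and 3.65 (2.89 to 4.55). The rIL7 rim was again the area that stood apart, 3.84-fold (2.67 to 5.48) above its interior, while the control ratio was 1.12 (0.664 to 1.81). Batf3 fell more gradually with depth than Ccl22, from 17.1 CPM in the outermost ring to 11.4, 4.996 and 3.95 in the next ring, rings 3 to 4 and rings 5 to 8. The 4 quadrants of the rIL7 rim lay between 9.16 and 18.2 CPM, and the control rim quadrants between 3.61 and 9.26, so they overlapped. The gene whose 16 blocks (2 sections, 4 quadrants, rim or interior) followed Batf3 most closely was its relative Batf, with Pearson r = 0.942 over blocks that share sections. Batf was looked up after the values were seen, and it too is made by T cells.

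Xcr1 and Clec9a are more specific to cDC1, the first a chemokine receptor and the second a receptor for dead cells, and both were rare. They lie on chromosome 9 (123852315 to 123862029) and chromosome 6 (129408862 to 129424764). Xcr1 had 2 UMIs at the control rim and 6 in the interior, and 7 and 11 in the rIL7 section. Clec9a had 2 and 8 in the control, and 8 and 14 after rIL7. Both therefore came from a handful of spots. Rim over interior in the rIL7 section was 3.51 (1.15 to 9.91) for Xcr1 and 3.15 (1.15 to 8.05) for Clec9a. The control ratios of 1.37 (0.135 to 7.67) and 1.03 (0.106 to 5.15) were too wide to set beside them. For the same reason the section ratios of 2.01 (0.830 to 5.33) and 2.05 (0.939 to 4.83), both just past the 2-fold limit, include 1 and could not be resolved at this depth. Xcr1 and Clec9a were found together in 1 spot of the rIL7 section and in 0 of the control. Xcl1, a ligand of Xcr1 that NK and T cells release, had 69 control UMIs and 173 rIL7 UMIs, and at the rIL7 rim it was 2.73-fold (1.95 to 3.80) above the interior, against 1.14-fold in the control.

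Cd209a, a lectin of cDC2 and of monocyte-derived cells encoded on chromosome 8 (3743395 to 3748984), had 5 UMIs at the rim and 14 in the interior of the control section, and 5 and 13 in the rIL7 section. The sections differed by 0.939-fold (0.476 to 1.86). Rim over interior was 1.47 (0.414 to 4.32) and 2.12 (0.592 to 6.34), so neither a difference nor its absence could be shown. Other cDC2 genes had more counts. The lectin Clec10a had 11 and 51 UMIs at the control rim and interior, and 118 and 92 in the rIL7 section, 7.07-fold (5.34 to 9.39) higher at the rIL7 rim. Mgl2, a related lectin that macrophages also carry, had 38 and 168 against 107 and 658, which was 3.31-fold higher in the rIL7 section with no rim excess (0.896, 0.724 to 1.1).

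Ccl22 differed most between the sections among the 9 genes. It lies on chromosome 8 (94745684 to 94751388) and had 14 control UMIs and 139 rIL7 UMIs, that is 0.610 CPM (0.333 to 1.02) and 5.40 (4.54 to 6.38), an 8.86-fold difference (5.10 to 16.6). The rIL7 rim held 75 of them at 19.1 CPM (15.0 to 24.0), and the interior 55 at 2.54 (1.92 to 3.31). The control had 6 at the rim and 7 in the interior, so it was low in both. Against the same area of the control the rIL7 rim was 14.2-fold (6.25 to 40.04) higher and the interior 6.68-fold (3.03 to 17.4), and Ccl22 thus differed in both areas, unlike Flt3 and Batf3. Rim over interior was 7.52 (5.24 to 10.8) in the rIL7 section. The control ratio of 3.53 (0.979 to 12.2) rested on 13 UMIs, and the ratio of ratios of 2.13 (0.576 to 8.12) included 1.

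Most of the rim signal lay in few spots. At the rIL7 rim 43 of 330 spots (13.0%, 9.59 to 17.1) held Ccl22, and 14 of these held 2 or more UMIs, up to 7 in a spot. Those 14 spots carried 46 of the 75 rim UMIs (61.3%), 11 of them were in the outermost ring, and 9 touched another of their kind. They were found in all 4 quadrants, with 2, 1, 3 and 8 spots, and the densest stretch ran along the edge at high grid rows. In the interior 52 of 1599 spots held the gene and 2 of these held more than 1 UMI. Across rim quadrants the level ran from 8.75 to 42.5 CPM in the rIL7 section and from 0 to 2.51 in the control, so the quadrants did not overlap. Leaving out the quadrant with the most Ccl22 lowered the rim ratio of the rIL7 section to 5.08 (3.29 to 7.77).

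**Figure D4:**
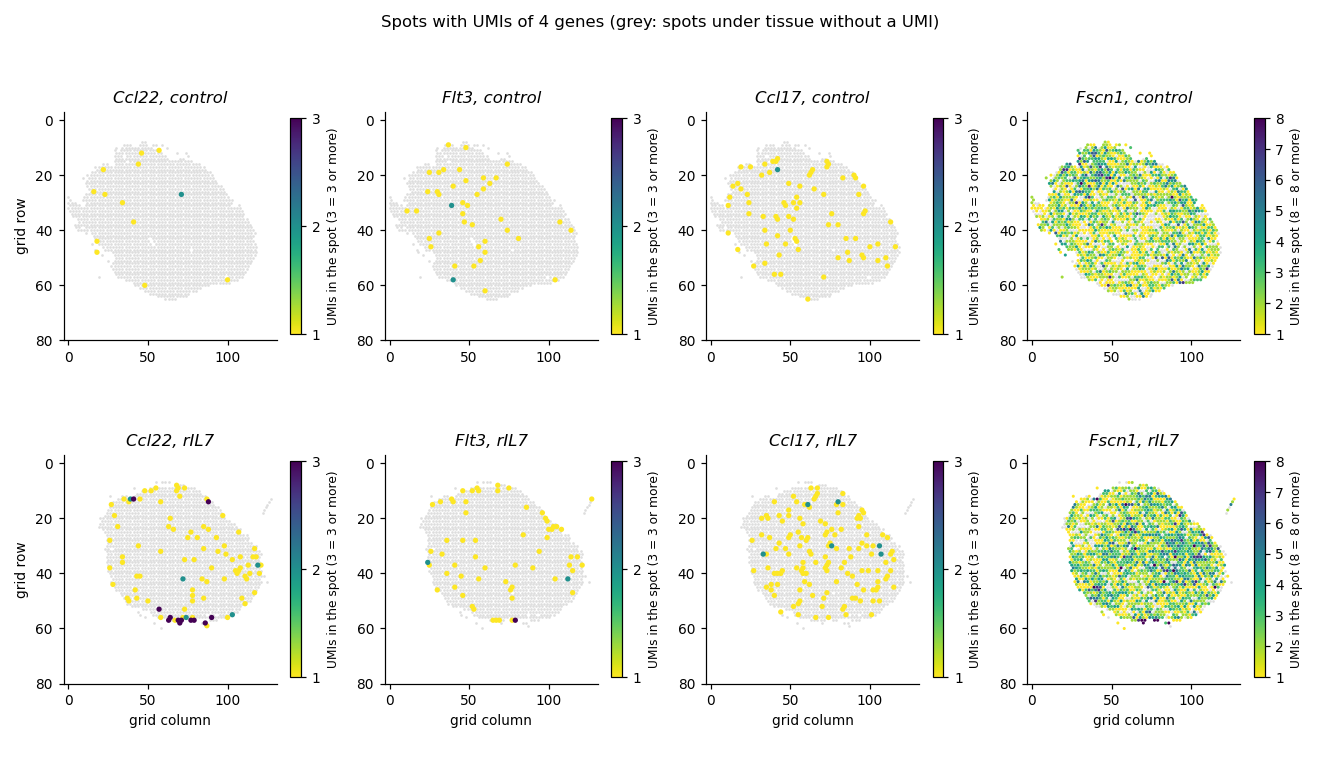
Spots of the control (top) and rIL7 (bottom) section at their grid position (x axis grid column, y axis grid row), coloured by the UMIs of Ccl22, Flt3, Ccl17 and Fscn1, with spots under tissue without a UMI in grey. Ccl22 is in 43 rim spots of the rIL7 section, with the fullest along the lower edge, whereas Ccl17 is in 123 interior and 16 rim spots and Fscn1 covers both tumors.

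The spots with Ccl22 were then examined for the other members and for 14 further genes of dendritic cell maturation, of which all are given. At the rIL7 rim Ccr7 had 40 UMIs in the 43 spots with Ccl22 and 30 in the 287 spots without, which is 73.8 against 8.87 CPM, an 8.32-fold difference (5.06 to 13.8). Cacnb3, a calcium channel subunit gene switched on in mature dendritic cells, was 4.16-fold (3.0 to 5.74) higher there. Il4i1, an amino acid oxidase, was 4.24-fold (2.15 to 8.18) higher, Cd200 3.44-fold (2.07 to 5.61) and Cd83 2.88-fold (1.99 to 4.10). Nudt17 was 9.36-fold (3.52 to 26.4) higher on 20 UMIs. The costimulatory genes Cd40 and Cd80 were 1.90-fold (1.32 to 2.70) and 2.04-fold (1.11 to 3.59) higher, while Relb (1.18), Cd86 (1.30), Samsn1 (1.66), Socs2 (2.44) and Apol7c (3.75) had intervals that include 1, and Il12b had 1 UMI. The spots with Ccl22 were slightly deeper (median 12170 against 11106 UMIs), and CPM allows for that.

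Flt3 shared these spots, with 15 UMIs in the spots with Ccl22 and 20 in those without, a ratio of 4.68 (2.23 to 9.62). Batf3 (1.39, 0.623 to 2.79), Zbtb46 (1.15, 0.567 to 2.15) and Ccl17 (0.892, 0.0984 to 3.88) did not show a difference at these counts. Ccl17 had 2 UMIs in the spots with Ccl22 and 14 in those without, too few to tell whether it lay with Ccl22. Both genes encode ligands of Ccr4 and lie 57991 bases apart. In the interior of the rIL7 section only Flt3, of the members and maturation genes with at least 1 UMI in both kinds of spot, had an interval above 1 (6.08, 2.05 to 15.1, on 6 UMIs). There Ccr7 was at 1.69-fold (0.533 to 4.11), Cacnb3 at 0.883-fold (0.550 to 1.35) and Cd83 at 0.592-fold (0.159 to 1.54) in the 52 spots with Ccl22. The rim and interior ratios of Ccr7, Cacnb3, Cd83 and Fscn1 have intervals that do not overlap.

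**Figure D5:**
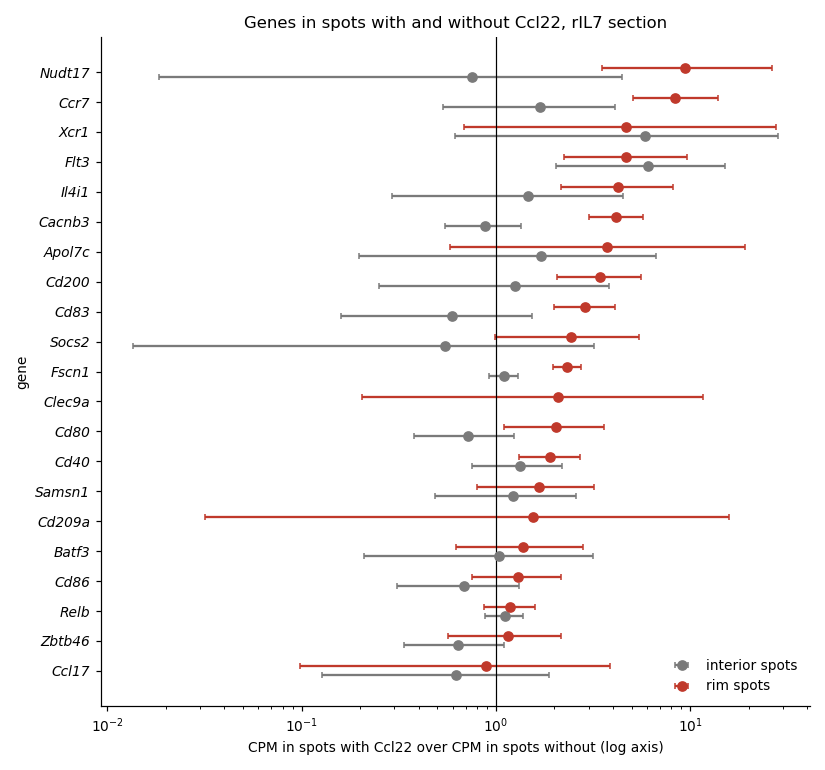
Ratio of CPM in spots with Ccl22 to CPM in spots without (x axis, log scale) for members and maturation genes (y axis), in rim (red) and interior (grey) spots of the rIL7 section, with 95% counting intervals; genes with 0 UMIs in 1 kind of spot are left out. At the rim Ccr7 (8.32), Cacnb3 (4.16), Cd83 (2.88) and Fscn1 (2.32) lie right of 1, and in the interior these 4 intervals include 1.

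Fscn1 was found across both tumors and was also higher in rIL7 rim spots with Ccl22. Which cells made it was not tested. The gene (chromosome 5, 142960355 to 142973189) had 723 UMIs at the control rim and 3147 in the interior, and 724 and 3647 in the rIL7 section. The levels were 162 CPM (150 to 174) and 171 (165 to 177) against 185 (171 to 198) and 169 (163 to 174), and over whole sections the ratio was 1.01 (0.968 to 1.06), the narrowest interval of the 9 genes. Rim over interior was 0.945 (0.870 to 1.02) in the control and 1.09 (1.01 to 1.19) in the rIL7 section, a ratio of ratios of 1.16 (1.03 to 1.30). The rIL7 excess lay in the outermost ring, at 207 CPM (186 to 229) against 165 (149 to 184) in the second.

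That excess coincided with Ccl22. Of the 172 outermost spots of the rIL7 section, the 30 with Ccl22 had 164 Fscn1 UMIs, or 441 CPM (376 to 514). The 142 without Ccl22 had 211, or 146 CPM (127 to 167), which is no higher than the 161 CPM (145 to 179) of the outermost control ring. Over the whole rIL7 rim Fscn1 was 2.32-fold (1.96 to 2.74) higher in spots with Ccl22 than without. In the 14 spots with 2 or more Ccl22 UMIs it stood at 666 CPM, 4.26-fold (3.44 to 5.24) above spots without, and Ccr7 in those spots was 23.0-fold (13.7 to 38.9) and Cacnb3 9.63-fold (6.65 to 13.8) higher. The spot with the most Fscn1 of the outermost ring, 19 UMIs, held 3 of Ccl22. In the interior the same comparison for Fscn1 gave 1.098 (0.924 to 1.30). Most of the Fscn1 signal was therefore found where no Ccl22 was, and a small part of it lay with Ccl22 and Ccr7 at the rIL7 edge. In the control, 6 rim spots held Ccl22 and had 23 Fscn1 UMIs, a ratio of 1.69 (1.06 to 2.56).

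Ccl17 (chromosome 8, 94809380 to 94812038) had 16 UMIs at the rim of each section, 63 in the control interior and 129 in the rIL7 interior. The section levels were 3.49 CPM (2.76 to 4.34) and 5.67 (4.79 to 6.67), a 1.63-fold difference (1.23 to 2.17), and the difference was 1.74-fold (1.28 to 2.39) in the interior and 1.14-fold (0.533 to 2.43) at the rim. The 4 interior quadrants ranged from 2.91 to 4.08 CPM in the control and from 5.68 to 6.29 in the rIL7 section and did not overlap. Rim over interior was 1.04 (0.563 to 1.83) and 0.684 (0.379 to 1.15), with intervals that include 1. The only Ccr4 UMI of the 2 sections was in the rIL7 section, so the receptor of both chemokines was not detectable at this depth.

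Summed over the 8 restricted members, the rIL7 section stood at 45.8 CPM (43.2 to 48.5) and the control at 32.0 (29.8 to 34.4), a ratio of 1.43 (1.30 to 1.57). The rim over interior ratio of the sum was 1.74 (1.51 to 1.99) in the rIL7 section and 0.959 (0.791 to 1.16) in the control, 1.81-fold (1.43 to 2.30) apart. Zbtb46 supplied most UMIs of the sum in each whole section, but 77 of 278 at the rIL7 rim, and diluted the ratios. Without it, a choice made after seeing the data, the section ratio was 1.76 (1.52 to 2.04), the rim over interior ratios were 3.33 (2.78 to 3.98) and 1.19 (0.883 to 1.59), and these were 2.79-fold (1.98 to 3.96) apart. The rim quadrants without Zbtb46 ranged from 42.2 to 77.7 CPM in the rIL7 section and from 10.4 to 16.3 in the control, with no overlap.

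Longer lists of genes of the same subsets were also counted. Of 10 cDC1 genes tested at the rIL7 rim, among them the members Batf3 and Clec9a, 6 were at least 2-fold above the interior and the median log2 ratio was 1.27, against 0 of 8 and 0.17 in the control and a median over all genes of -0.05 in the rIL7 section and -0.06 in the control. Of its most abundant genes, Irf8, a factor of cDC1 and other lineages, was 2.498-fold (2.25 to 2.77) higher at the rIL7 rim, Naaa, a lipid hydrolase, 1.97-fold (1.72 to 2.26) and Id2, a factor of cDC1 and lymphocytes, 1.44-fold (1.29 to 1.61). The maturation list, which holds 3 of the members, had 9 of 16 genes at least 2-fold higher with a median of 1.31, against 1 of 15 and 0.09 in the control. The 1 control gene was Ccr7, with 25 UMIs at the rim and 34 in the interior, 3.02-fold. The cDC2 list had 3 of 6 with a median of 1.13, against 0 of 6 and -0.06, and its most abundant gene Sirpa, an inhibitory receptor of myeloid cells, was 1.96-fold (1.85 to 2.08) higher. A list of plasmacytoid dendritic cell genes, which holds no member, had 4 of 7 with a median of 1.84, against 3 of 7 and 0.49 in the control. Its summed rim over interior ratio was 1.23 in the rIL7 section and 1.33 in the control, so that list was higher at both rims. The summed ratios, rIL7 before control, were 1.84 and 1.14 for the cDC1 list and 1.81 and 1.08 for the cDC2 list. For the maturation list they were 1.39 and 0.958. The factor Klf4 and the NF-kB subunit gene Relb, at 1.08- and 0.883-fold, did not share the rim excess. Neither did Ccl17, at 0.684-fold, nor Cd80, which was lower at the rIL7 rim than in its interior. All of these lists hold genes that other cells make.

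Other cell types differed at the same rim. The summed T cell list, 10 genes, stood at 403 CPM at the rIL7 rim and 130 in the interior, against 91.5 and 71.1 in the control, with 9 of 10 and 0 of 9 genes tested at least 2-fold higher. MHC class II genes stood at 7960 CPM and 2509, against 3265 and 2751 (7 of 7 and 0 of 7), and macrophage genes at 6838 and 3459, against 3877 and 3462 (2 of 10 and 0 of 10). Of monocyte genes 3 of 5 were at least 2-fold higher at the rIL7 rim and 2 of 5 at the control rim, with median log2 ratios of 1.25 and 0.96. The CT26 transcripts were lower at the rIL7 rim, at 757 CPM against 1096, and stood at 1205 and 1315 in the control. B cell genes were sparse throughout, at 10.2 and 2.31 CPM in the rIL7 section and 4.47 and 3.15 in the control. Keratinocyte genes went the other way, with 126 CPM at the control rim, 40.7 in its interior, and 30.6 and 39.2 in the rIL7 section, so the rims also differed in skin transcripts. Rim over interior for fibroblast genes was 1.74 in the rIL7 section and 0.972 in the control, for endothelial genes 2.34 and 1.25, for adipocyte genes 1.89 and 0.746, and for skeletal muscle genes 0.986 and 0.263. With 1 section per group, different surrounding tissue cannot be told apart from the treatment. The part of these differences in the members' rim levels was not tested.

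The 14 rIL7 rim spots with 2 or more Ccl22 UMIs were themselves rich in some of these genes. The T cell list stood at 983 CPM in them and 352 in rim spots without Ccl22, 2.79-fold (2.36 to 3.29), and MHC class II at 1.83-fold (1.75 to 1.91). Endothelial and adipocyte genes were 3.74-fold (2.68 to 5.12) and 4.02-fold (3.27 to 4.90) higher there, CT26 transcripts 0.514-fold (0.398 to 0.654), and B cell genes had 1 UMI in them. Over the 16 blocks, the genes that followed the restricted sum most closely were Cd247, Fnbp1, Sema4a, Il21r and Pdlim4, with Pearson r from 0.952 to 0.961, a signalling chain of the T cell receptor being first. For Fscn1 they were Arhgap45, Arhgef1, Pelo, Rufy3 and Arhgap17, with r from 0.845 to 0.930. The blocks share sections and depth, and these correlations describe the 2 sections and are given without a test.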

How the data were processed

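Spatial RNA of 2 tumor sections was analysed. The authors counted UMIs per gene and spot with Space Ranger 1.1.0 against mm10. The deposited matrices hold these raw UMI counts for the spots under tissue, with the grid position and tissue flag of each spot as other deposited values. Here spots under tissue with under 10% mitochondrial UMIs and over 200 genes were kept, as in the study's methods, which removed 2 control spots and 1 rIL7 spot. UMIs were summed per area and divided by the area's total. Folds of genes with at least 20 UMIs in the areas compared were counted, a gene at 0 being set to 3 UMIs. Intervals were computed with scipy 1.17.1, TMM and median-of-ratios scaling with edgeR 4.0.16 and DESeq2 1.42.0. Ratios and intervals were tested on simulated independent Poisson counts. These hold no clustering of UMIs in spots, so that test does not cover it. Rings were counted on the grid from the outer outline. Quadrants, cut at the median row and column, and spots are not replicates.

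The members and gene lists were chosen with earlier results of these data known. All members are named, with the genes of a list that have the most UMIs. Clec10a, Mgl2 and Batf were named, and the comparison of spots with and without Ccl22 was chosen, after values were seen; that comparison gives its whole maturation list. Genes alike in pattern are the 5 with the highest Pearson r of log2(CPM + 1) among genes with at least 100 UMIs. Gene positions are from RefSeq for GRCm38, matched by symbol. The sections share 1702 spot barcodes, which mark slide positions. Alternatives were the spot filter, scaling, totals, equal spot weights, thinning, rim width and single quadrants left out.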

Additional observations from a re-analysis of the deposited data

Results flagged for a closer look

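For a pair of genes, the rim lay on opposite sides of the interior in the 2 sections. Fscn1 was at 1.09 times the interior level at the rIL7 rim and at 0.945 times at the control rim. Ccl17 was at 0.684 times the interior level at the rIL7 rim and at 1.04 times at the control rim. With 1 section per group the difference was not tested for either gene, and 3 of the 4 intervals include 1, that of Fscn1 in the rIL7 section being 1.01 to 1.19.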

How the results depend on the processing

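Of 133 recomputed values of the main comparisons, 118 stayed within the counting interval of the main value (or, for counts, within 1.5 times). A ratio was called reversed only where its main interval excluded 1 and the recomputed value crossed 1. By that rule 0 reversed among these and the 296 values of single members. Ratios whose main interval includes 1 could cross it uncounted. The control rim over interior ratio of the restricted sum went from 0.959 to 1.19 without Zbtb46. The section ratio of Fscn1 went from 1.01 to 0.975 after thinning. The ratio of the sections for the restricted sum was 1.27 over interior spots, 2.30 over rim spots and 1.76 without Zbtb46, and that of Fscn1 was 1.14 over rim spots. In the rIL7 section the rim over interior ratio of the restricted sum was 2.15 with the outermost ring alone, 1.51 with 3 rings, 1.495 without the fourth quadrant of the rim and 3.33 without Zbtb46, and that of Fscn1 was 1.23 with the outermost ring alone. In the control it was 1.19 without Zbtb46. The rIL7 ratio against the control ratio was 2.32 with the outermost ring alone and 2.79 without Zbtb46. Members at least 2-fold higher in the rIL7 section numbered 1 instead of 3, Ccl22 alone, with a minimum of 50 UMIs and likewise 1 after thinning, and at the control rim 1 instead of 0 without a minimum. Xcr1, with 8 control and 18 rIL7 UMIs, and Clec9a, with 10 and 23, fell below the minimum of 50 and were not counted under it. Thinning leaves fewer UMIs per gene. The cause of the other shifts was not tested. Scaling by TMM or by median of ratios changed no main value beyond its interval. No paired analysis was possible because each group has 1 section. Depth limits Xcr1, Clec9a and Cd209a, with at most 23 UMIs per section.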
